A study of Mus musculus with 18 samples.

Results

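The mRNAs of 9 enzymes that make or break down heme (Alas1, Alad, Uros, Urod, Cpox, Ppox, Fech, Hmox1 and Hmox2) were followed in the mouse liver over a light-dark cycle. The members were chosen by gene symbol, with earlier results of these data known. All 9 were found, 1 row each, among the 14451 genes of the table of normalized counts. The data came from whole livers of WT male mice of 8 to 9 weeks kept under 12 h of light and 12 h of dark. Each of the 18 livers was from another mouse, with 3 livers at each of 6 zeitgeber times (ZT, hours after lights on), namely ZT1, ZT5, ZT9, ZT13, ZT17 and ZT21. The groups differed only in the time of harvest, and no mouse was mutant or treated. The livers sequenced were those with the best RNA of each group, and polyA RNA was read as short single reads, so every p-value below measures the spread between these chosen mice.

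Heme is the iron-porphyrin group that cytochrome P450 enzymes, catalase and the respiratory cytochromes of hepatocytes carry. Its synthesis starts in the mitochondrion with 5-aminolevulinate synthase (ALAS1 in the liver), the rate-limiting step, which heme itself restrains, goes on in the cytosol, and ends in the mitochondrion, where ferrochelatase inserts the iron. Heme oxygenases open the ring to biliverdin, which biliverdin reductases turn into bilirubin. In the liver Alas1 is known to respond to fasting through PGC-1α, to drugs through the nuclear receptors CAR and PXR, and to the clock through REV-ERBα, for which heme is a ligand.

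The livers held 10268168 to 23242842 estimated reads each, and the fewest reads behind a member value in any liver were 101 (Hmox1). The 5 hepatocyte markers added up to a normalized count between 69200 and 99240 in every liver. The sum was 69200 to 73300 at ZT9 and at least 74780 at every other time, so it was not level over the cycle. Alb alone averaged 64810, and Ttr, 1 of the 5, passed every test of change over time used below. The clock genes Arntl, Nr1d1, Per2 and Dbp placed 17 of the 18 livers nearest to the other livers of their own time. The library labelled ZT5 replicate 3 was nearest to ZT9. Its Arntl value was 1.69, against 5.71 and 5.09 in the other ZT5 livers, and it was also the deepest library. The counts of members called and several results that rest on it are therefore given with and without it.

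The genes lay on GRCm38 as protein-coding genes at chr9:106233455-106248654 (Alas1, minus strand), chr4:62509169-62519918 (Alad, minus), chr7:133686243-133710072 (Uros, minus) and chr4:116989965-116994413 (Urod, minus). Cpox and Ppox lay at chr16:58670292-58717636 (plus strand) and chr1:171275990-171281186 (minus strand). The heme oxygenase genes lay at chr8:75093621-75100589 (Hmox1, plus) and chr16:4726361-4766742 (Hmox2, plus). Hmox2 shared 892 exon bases (40.2% of its exons) with Cdip1 on the other strand, and Ppox shared 791 (17.5%) with B4galt3. Alas1 shared 465 exon bases (7.53%) and Cpox 204 (3.06%) with opposite-strand genes that the table did not list. The counting was not stated to use strand, so reads of such pairs cannot be told apart.

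Start-site windows, the 250 bases before an annotated start (RefSeq, GRCm38.p6), were found for 7 of the 9 members, 12 windows in all. Those of Alas1, Alad and Cpox are shown because these are the members with a call below whose mean was highest at ZT13 or ZT17, a choice made after the values were seen. For Alas1 only the 30 bases around an NRF1 site are given (chr9:106247906-106247935, minus strand). All 30 lie in annotated exons, as do 235 of the 250 bases of that window. The Alad window is chr4:62520064-62520313 (minus strand) and the Cpox window chr16:58669958-58670207 (plus strand), both outside annotated exons. Capitals mark matches, on either strand, to a searched motif:
Alas1: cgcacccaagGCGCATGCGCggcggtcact
Alad: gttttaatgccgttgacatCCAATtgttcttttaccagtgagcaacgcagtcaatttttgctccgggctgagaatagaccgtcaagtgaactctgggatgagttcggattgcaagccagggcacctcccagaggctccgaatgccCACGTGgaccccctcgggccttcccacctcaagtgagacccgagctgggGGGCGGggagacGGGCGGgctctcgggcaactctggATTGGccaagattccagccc
Cpox: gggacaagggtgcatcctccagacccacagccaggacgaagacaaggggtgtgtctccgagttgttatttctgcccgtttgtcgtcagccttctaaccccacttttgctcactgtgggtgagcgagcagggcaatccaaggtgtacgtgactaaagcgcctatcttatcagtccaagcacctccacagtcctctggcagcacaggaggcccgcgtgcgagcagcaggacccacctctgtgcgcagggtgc
Of the 9 motifs searched on both strands, the NRF1 site, whose 10 letters are the capitals of the Alas1 line, stood in an Alas1 window at position -195, counted from the start, and in 0.782% of all 32851 windows. The E-box CACGTG, the letters that CLOCK and BMAL1 bind, stood at position -105 of the Alad window shown and in 4 of the 12 windows, of 3 members (Alad, Uros and Urod), against 6.02% of all windows. CCAAT was found in 4 of the 12 windows, of 3 members (33.8% of all windows), and the GC box GGGCGG in 6, of 5 members (32.7% of all windows). Windows of 1 member can share bases. No member window held the D-box TTATGTAA (0.819%), AGGTCA (14%), TGACGTCA (1.55%), TGACNNNGC (10.2%) or TATAAA (12.4%), and no motif of the 9 was in the Cpox window. A GC box may overlap a neighbouring GC box, and a match is a match of letters only.

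Across the 18 livers, Alas1 and Alad had the highest levels per kb of merged exon among the members. The mean normalized count per kb was 62.5 for Alas1 (8.84 to 154.8 over the livers) and 54.5 for Alad (43.5 to 68.5), followed by Urod at 25.1, Cpox at 19.8 and Hmox2 at 15.2. Fech reached 10.4, Hmox1 7.46, Uros 5.21 and Ppox 4.69. Neighbours in this order overlapped in the ranges of their livers, except that every Alad value (at least 43.5) lay above every Urod value (up to 30.5), and every Hmox2 value (at least 13.3) above every Fech value (up to 12.3). All values below are normalized counts (reads of a gene scaled to the size of its library), on a linear scale unless log2 is named, and are not divided by length.

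Over the cycle, 6 of the 9 members carried a 24 h term in limma (adjusted p under 0.05), namely Alas1, Uros, Cpox, Ppox, Fech and Hmox2, where 35.3% of the 14449 genes tested did. With limma's test of any difference between the 6 times, 4 members passed (Alad, Uros, Cpox and Fech) against 26.3% of all genes. The rank test JTK called 2 members (Cpox and Fech), with 14.1% of all genes called. MC, which combines JTK with the Lomb-Scargle periodogram, called 3 (Uros, Cpox and Fech), with 18.3% of all genes called. The CircaN-type curve fit, which also needs an R-squared of 0.7 or more, called the same 3 members as MC, with 12.1% of all genes called. Its q-value was under 0.05 for all 9 members, so the R-squared alone decided these calls. Over all genes it called 1748 at a q-value threshold of 0.05 and 1748 at 0.01. Cpox and Fech were thus called by all 5 rules, Uros by 4, Alas1, Ppox, Hmox2 and Alad by 1 each, and Urod and Hmox1 by none. The median amplitude of the 24 h term was 0.21 (log2, mean to peak) over the 9 members and 0.16 over all genes. Without ZT5 replicate 3 the counts were 6, 5, 2, 3 and 3 in the order above, Alas1 joining the second (adjusted p = 0.0414, limma).

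**Figure D1:**
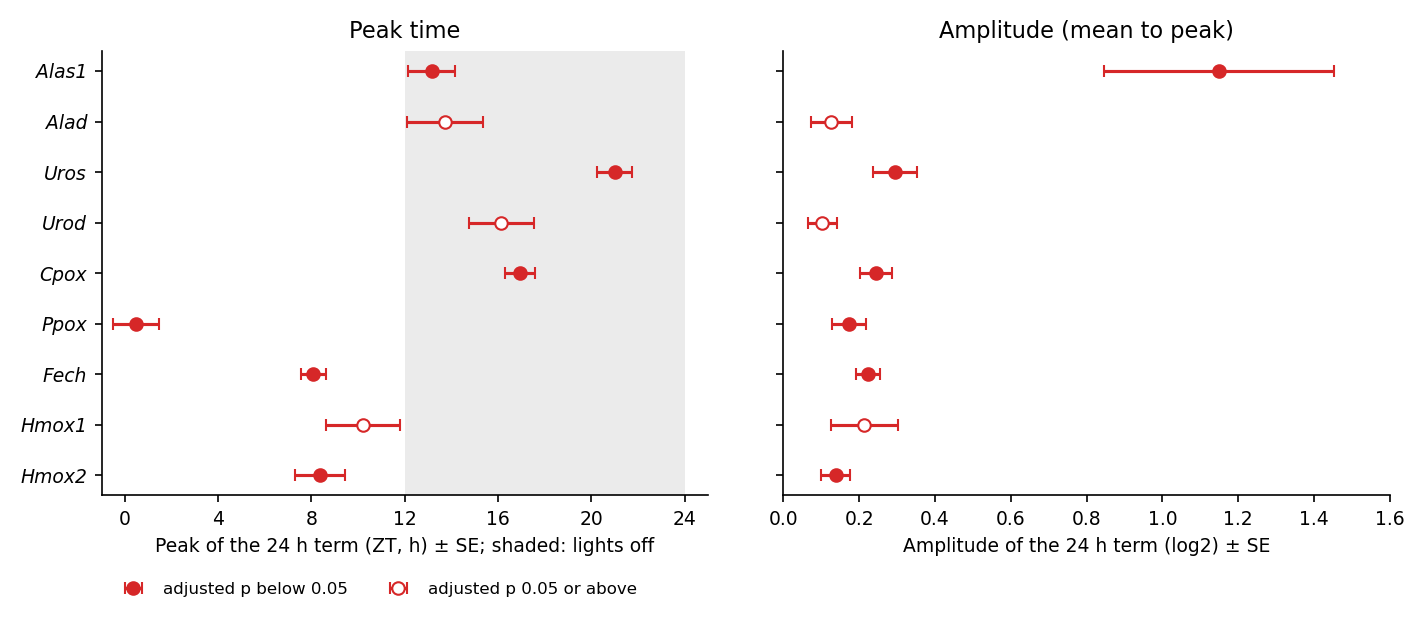
Peak time (left, ZT in h, shaded when lights were off) and amplitude (right, log2, mean to peak) of the 24 h term of each member, as estimates with standard errors from limma over 18 livers, filled where the adjusted p was below 0.05. Alas1 stands alone at an amplitude of 1.15, and the other members lie between 0.10 and 0.29 with filled peaks at 8.08 h (Fech), 8.37 h (Hmox2), 16.94 h (Cpox), 21.01 h (Uros) and 0.482 h (Ppox).

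The peaks of the 24 h term were spread over the cycle. Alas1 peaked at ZT 13.16 ± 1.01 h (SE), Uros at 21.01 ± 0.752 h, Cpox at 16.94 ± 0.655 h, Ppox at 0.482 ± 0.988 h, Fech at 8.08 ± 0.531 h and Hmox2 at 8.37 ± 1.081 h. Alad, Urod and Hmox1, whose 24 h term missed the threshold, had estimates of 13.74 ± 1.63, 16.14 ± 1.40 and 10.21 ± 1.59 h.

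Alas1, which encodes the rate-limiting enzyme, was the member with the widest swing and also with the widest spread between mice of the same time. Its values were 172, 154 and 98.6 at ZT1, and 82.6, 108 and 381 at ZT5. They were 648, 199 and 478 at ZT9, and 956, 832 and 832 at ZT13. They were 181, 491 and 240.0 at ZT17, and 625, 54.6 and 413 at ZT21. All 3 ZT13 livers lay above the other 15, and the 3 ZT1 livers lay below every ZT9, ZT13 and ZT17 liver, while ZT5 and ZT21 each held low and high livers.

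The Alas1 mean was 141 ± 38.1 at ZT1, 191 ± 166 at ZT5, 442 ± 227 at ZT9, 873 ± 71.6 at ZT13, 304 ± 165 at ZT17 and 364 ± 288 at ZT21 (SD, n = 3 each). Below the ZT13 peak, neighbours in the order of these means overlapped in their livers. At ZT5 the highest liver was ZT5 replicate 3, and the mean of the other pair was 95.4. ZT21 replicate 2 had the lowest value of the series and the other ZT21 livers were among its higher ones.

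The ZT13 mean of Alas1 was 6.17 times the ZT1 mean, a log2 fold change of 2.65 ± 0.745 (SE, adjusted p = 0.0260, limma). The call was lost when any of the 6 livers at those times was left out (adjusted p between 0.0504 and 0.0878, log2 fold change between 2.42 and 2.81). The 24 h amplitude was 1.15 ± 0.304 (log2), a 4.92-fold change from trough to peak (adjusted p = 0.0195), and 1.23 without ZT5 replicate 3. Leaving out ZT13 replicate 1 took its adjusted p to 0.05002, just above the threshold. The test over the 6 times gave an adjusted p of 0.0828, JTK a q-value of 0.128, MC 0.152, and the curve fit an R-squared of 0.573. The test over times was passed without ZT5 replicate 3 (0.0414), ZT21 replicate 1 (0.0476) or ZT21 replicate 2 (0.0105), and with an intensity trend of the prior variance (0.0442), and MC called Alas1 without ZT21 replicate 1 (q = 0.0499).

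The within-time coefficient of variation of Alas1 averaged 51.1%, above 98.9% of the 12480 genes with a mean of at least 1, whose median was 12.0%. At ZT13, by contrast, it was 8.20%, against 86.8% at ZT5 and 79.2% at ZT21. Fech stood at the other end, with 3.30%, above only 0.321% of those genes, and the other 7 members lay between 5.27% (Urod) and 16.1% (Hmox1).

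**Figure D2:**
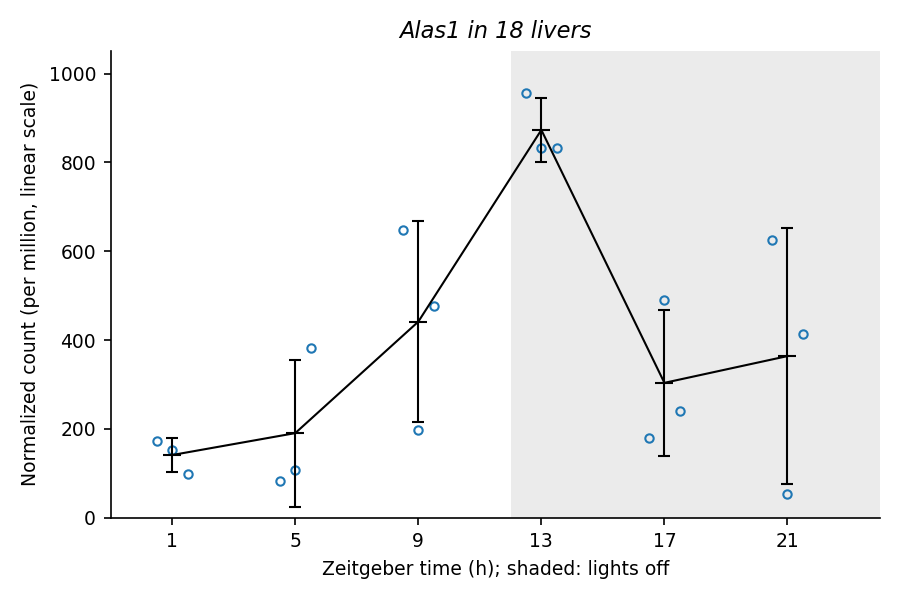
Normalized count of Alas1 (linear axis from 0) against zeitgeber time in h, with 1 open circle per liver, and the mean and SD of 3 livers joined by a line. The 3 livers at ZT13 sit together between 832 and 956, above all others, while those at ZT21 run from 54.6 to 625.

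Alad encodes the cytosolic enzyme that joins 5-aminolevulinate into porphobilinogen, the step after ALAS1. Its values were 93.5, 108 and 100.5 at ZT1, 95.9, 93.5 and 109.8 at ZT5, and 88.6, 89.6 and 97.0 at ZT9. They were 121, 128 and 116 at ZT13, 107, 112 and 111 at ZT17, and 92.9, 81.3 and 90.3 at ZT21. As for Alas1, all 3 ZT13 livers lay above the other 15, a pattern that 1.38% of all genes tested showed and that these 2 of the 9 members shared. The share was taken for ZT13 only, the time at which these 2 members stood out, so it is a description and not a test. No such share was computed for the other statements that livers of 1 time lay above or below those of another. The ZT13 mean of Alad, 122 ± 6.27, was 1.38 times the ZT21 mean of 88.1 ± 6.04 (SD, n = 3). The test over the 6 times was passed (adjusted p = 0.00997, limma), whereas the 24 h cosine was not (amplitude 0.13 ± 0.05399, adjusted p = 0.167). Between ZT13 and ZT1 the log2 fold change was 0.27 ± 0.0902 (adjusted p = 0.0562, and 0.0496 without ZT5 replicate 3).

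Uros and Urod encode the cytosolic steps that close the porphyrin ring and trim its side chains. Uros was lowest late in the light phase. Its values were 11.6, 13.0 and 16.1 at ZT9, 18.3, 14.4 and 18.8 at ZT5, and 17.99, 15.9 and 18.3 at ZT13. At ZT17 they were 22.1, 21.6 and 20.3, at ZT21 22.5, 21.6 and 17.8, and at ZT1 19.98, 23.0 and 22.4. All ZT9 livers lay below every ZT17, ZT21 and ZT1 liver, and overlapped with those of ZT5 and ZT13.

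From ZT9 to ZT21 Uros rose by 0.57 ± 0.129 on the log2 scale, 1.49-fold (adjusted p = 0.00931, limma), and the 24 h amplitude was 0.29 ± 0.0579 (adjusted p = 0.00258). The MC q-value was 0.0194 and the JTK q-value 0.0537. The curve fit had an R-squared of 0.751 with the period at its lower limit of 20 h, and this call was lost when fits at a period limit were not counted. Leaving out ZT9 replicate 1 or 2 ended both the MC call (q = 0.0869 and 0.0880) and the curve-fit call, while without ZT21 replicate 3 JTK called Uros too (q = 0.0224).

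Urod moved least among the enzymes of synthesis. Its mean went from 58.2 ± 0.587 at ZT5 to 69.9 ± 3.29 at ZT13 (SD, n = 3), a ratio of 1.2. The 3 ZT5 livers (57.6, 58.1 and 58.8) lay below the other 15 livers, which spanned 60.1 to 79.0. The share of all genes with such a pattern at ZT5 was not computed. Neither the 24 h term (amplitude 0.10 ± 0.0377, adjusted p = 0.0970) nor the test over times (adjusted p = 0.227) passed in limma. Without ZT17 replicate 1, whose value was the lowest of its time, JTK (q = 0.0408), MC (q = 0.0235) and the comparison of ZT17 with ZT5 (adjusted p = 0.0454) called it.

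Cpox, which encodes the coproporphyrinogen oxidase between the mitochondrial membranes, was high through the first part of the dark phase. Its values were 126, 126 and 127 at ZT1, 104, 105 and 118 at ZT5, and 128, 108 and 108 at ZT9. They were 141, 166 and 146 at ZT13, 163, 152 and 149 at ZT17, and 136, 144 and 124 at ZT21. Every ZT13 and ZT17 liver lay above every ZT1, ZT5 and ZT9 liver, and the ZT21 livers overlapped with both sets.

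From ZT5 to ZT17 Cpox rose by 0.50 ± 0.0962 on the log2 scale, 1.41-fold (adjusted p = 0.00219, limma), and by 0.55 without ZT5 replicate 3 (adjusted p = 0.00342). The amplitude was 0.25 ± 0.0421 (adjusted p = 0.000812). JTK gave a q-value of 0.0148 and MC 0.00359, and the curve fit had an R-squared of 0.815 with a period of 20.9 h. A single day of sampling leaves such periods loosely fixed.

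Ppox, which encodes the oxidase that makes protoporphyrin, was lowest at ZT13, when Cpox was high. Its values were 21.2, 23.5 and 25.5 at ZT1, 18.8, 19.8 and 16.2 at ZT13, and 23.9, 24.6 and 23.2 at ZT21. The ZT13 livers lay below all those of ZT1 and ZT21. The means of ZT5, ZT9 and ZT17 lay between, at 21.3, 20.5 and 19.5, but single livers overlapped. ZT17 replicate 3 (16.8) lay below ZT13 replicates 1 and 2, and ZT5 replicate 2 (23.4) above ZT1 replicate 1. At ZT13 Ppox was lower than at ZT1, with a log2 fold change of -0.34 ± 0.109 (adjusted p = 0.0465, limma). This call was lost in 12 of the 18 fits that left out a liver (adjusted p up to 0.165), that without ZT5 replicate 3 among them (0.0568). The 24 h amplitude was 0.17 ± 0.0448 (adjusted p = 0.0171, and 0.0504 without ZT13 replicate 3). MC called Ppox without ZT1 replicate 1 or ZT5 replicate 1 (q = 0.0413 and 0.0422), and the test over times did so without ZT17 replicate 2 (adjusted p = 0.0436). B4galt3, which shares exon bases with Ppox, had time means between 8.43 and 10.04 and no 24 h term (adjusted p = 0.224).

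Fech (chr18:64452914-64490251, minus strand), which encodes ferrochelatase, the last step, was the member with the most regular course. Its values were 138, 142 and 133 at ZT1, 167, 171 and 148 at ZT5, and 157, 166 and 157 at ZT9. They were 149.5, 159 and 149 at ZT13, 131, 128 and 127 at ZT17, and 121, 119 and 120.0 at ZT21. Every ZT5, ZT9 and ZT13 liver lay above every ZT1 liver, every ZT1 liver above every ZT17 liver, and every ZT17 liver above every ZT21 liver, while ZT5, ZT9 and ZT13 overlapped among themselves.

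The 24 h amplitude of Fech was 0.22 ± 0.0310 (adjusted p = 0.000125, limma), 1.36-fold from trough to peak. Fech fell by 0.41 on the log2 scale from ZT9 to ZT21 (SE 0.0758, adjusted p = 0.00243), and by 0.33 from ZT5 to ZT17 (adjusted p = 0.00664), the latter by 0.39 without ZT5 replicate 3 (adjusted p = 0.005). JTK gave a q-value of 0.00717 and MC 0.00126, and the curve fit an R-squared of 0.886 with a period of 24.9 h. These calls held under every alternative tried, each left-out liver included.

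**Figure D3:**
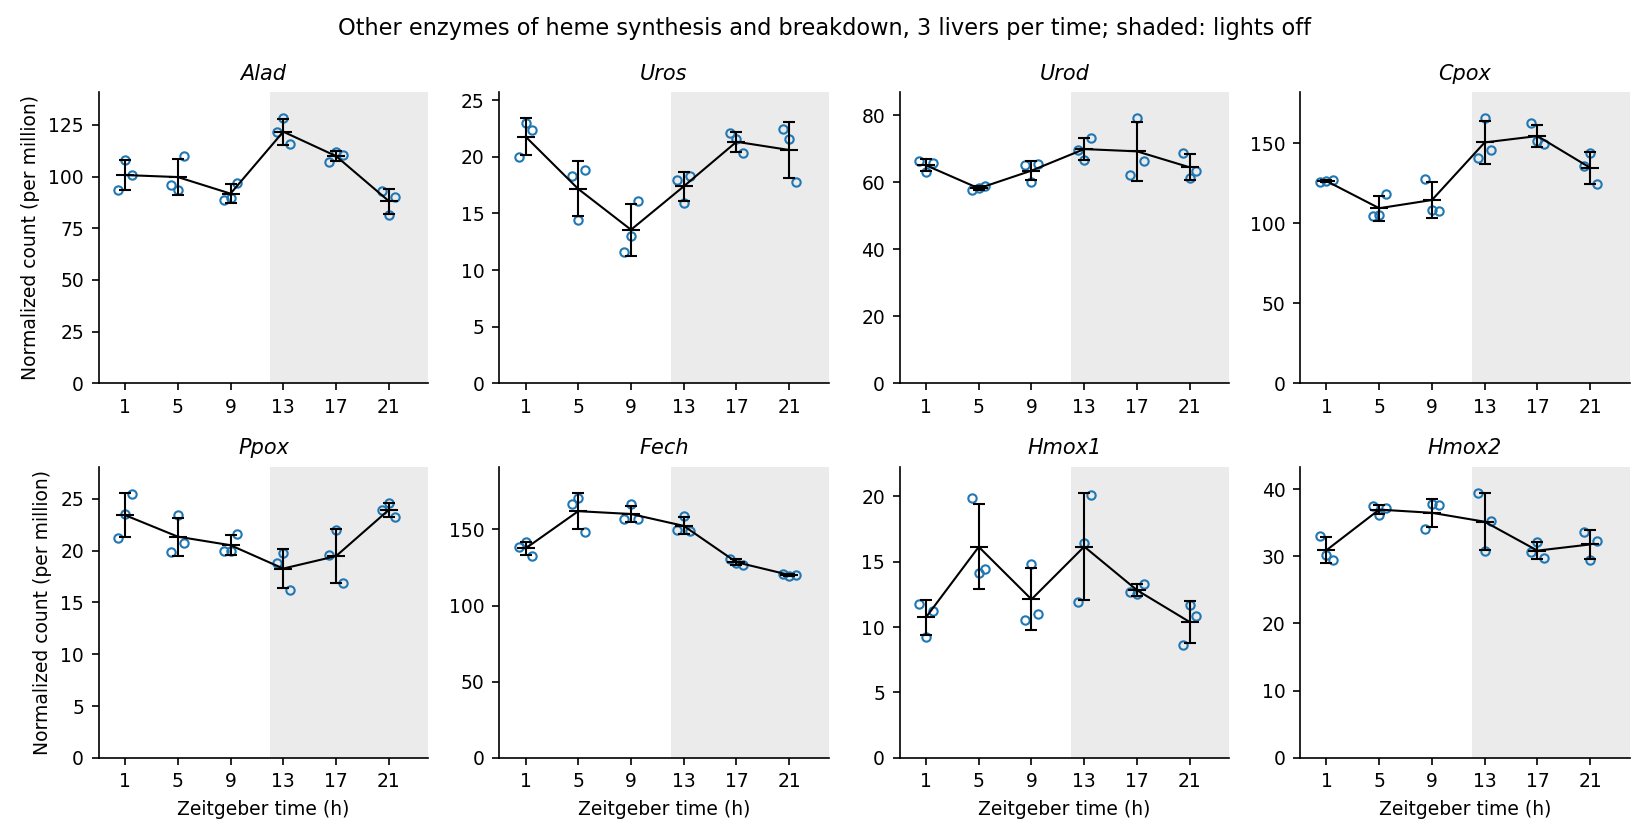
Normalized count (linear axes from 0, 1 panel per gene) of the 8 members other than Alas1 against zeitgeber time in h, with 1 open circle per liver, and the mean and SD of 3 livers joined by a line over the shaded dark phase. Fech falls from 162 at ZT5 to 120.1 at ZT21 with little spread, Cpox is highest at ZT13 and ZT17 (151 and 155), and Hmox1 is widely spread at ZT5 and at ZT13 (11.9 to 20.1).

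The heme oxygenases open the heme ring, HMOX1 being the inducible form, abundant in macrophages that clear red cells, and HMOX2 the constitutive one. Hmox1 had 2 high groups with wide spread. Its values were 11.8, 9.23 and 11.2 at ZT1, 19.9, 14.1 and 14.4 at ZT5, and 10.5, 14.9 and 11.01 at ZT9. They were 11.9, 16.5 and 20.1 at ZT13, 12.7, 12.5 and 13.3 at ZT17, and 8.60, 11.7 and 10.9 at ZT21. The ZT5 livers lay above all those of ZT1, ZT17 and ZT21, and the ZT13 livers overlapped with all but those of ZT1 and ZT21. Hmox1 passed no rule: the 24 h term had an adjusted p of 0.153 (amplitude 0.21 ± 0.0888), the test over times 0.0641 (limma), and the JTK and MC q-values were 1. Without ZT13 replicate 1, the lowest of that time, the test over times (adjusted p = 0.0202) and the comparison of ZT13 with ZT1 (0.0214) were passed, and without ZT9 replicate 2 or with an intensity trend of the prior variance the former (0.0447 and 0.0452).

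The 8 Kupffer cell markers were summed beside it, since Hmox1 is not specific to hepatocytes. Their sum ran from 223.7 to 298.4 at ZT5, from 229.1 to 285.8 at ZT9 and from 210.8 to 287.8 at ZT13, against 116.6 to 178.5 at ZT21. It was 130.9 to 270.9 at ZT1 and 115.7 to 263.7 at ZT17, and 4 of the 8 carried a 24 h term (35.3% of all genes did). Of the 8, 1 passed the test over times (26.3% of all genes). MC called 1 (18.3%), JTK 0 (14.1%) and the curve fit 0 (12.1%). Clec4f and Cd5l were at 71.7 and 57.4 on average and none of the 8 was at 0. The 4 endothelial markers summed to between 144.6 and 170.2 at ZT5 and between 76.8 and 119.5 at ZT21. In whole liver, fewer cells of a type and less RNA per cell cannot be told apart, and the part of these cells in the values of Hmox1, Fech and Hmox2, which were also higher at ZT5 than at ZT21, was not tested.

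Hmox2 values lay between 29.4 and 39.4 in all livers. The mean was 36.95 ± 0.677 at ZT5 and 30.8 ± 1.24 at ZT17 (SD, n = 3). The livers of these times did not overlap, and the share of all genes without overlap there was not computed. The 24 h amplitude was 0.14 ± 0.0390 (adjusted p = 0.0288, limma), and leaving out ZT9 replicate 2, ZT9 replicate 3 or ZT21 replicate 2 took the adjusted p to between 0.0555 and 0.0572. The difference between ZT17 and ZT5 was -0.25 (log2, adjusted p = 0.0722), and -0.38 when each liver was scaled to the same sum (adjusted p = 0.0151). Without ZT5 replicate 3 this difference was again -0.25 (adjusted p = 0.142), and Hmox2 kept its 24 h term (adjusted p = 0.0480, limma). Cdip1, with which it shares exon bases, was at 65.8 on average, highest at ZT13 (87.0 ± 8.51) and lowest at ZT1 (51.6 ± 2.07), and Hmox2 was at 35.1 ± 4.27 and 30.9 ± 1.93 at these times.

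Set 12 h apart, 2 members differed in each of the 3 comparisons, 1 in each direction. Between ZT13 and ZT1 these were Alas1 (higher, with 6.8% of all genes) and Ppox (lower, with 7.42%), and 14.2% of all genes differed. Between ZT17 and ZT5, where 19.7% of all genes differed, they were Cpox (higher, with 9.26%) and Fech (lower, with 10.5%). Between ZT21 and ZT9 they were Uros (higher, with 5.63%) and Fech (lower, with 5.07%), of 10.7% in all. Without ZT5 replicate 3 the count was again 2 in each, Alad taking the place of Ppox between ZT13 and ZT1.

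**Figure D4:**
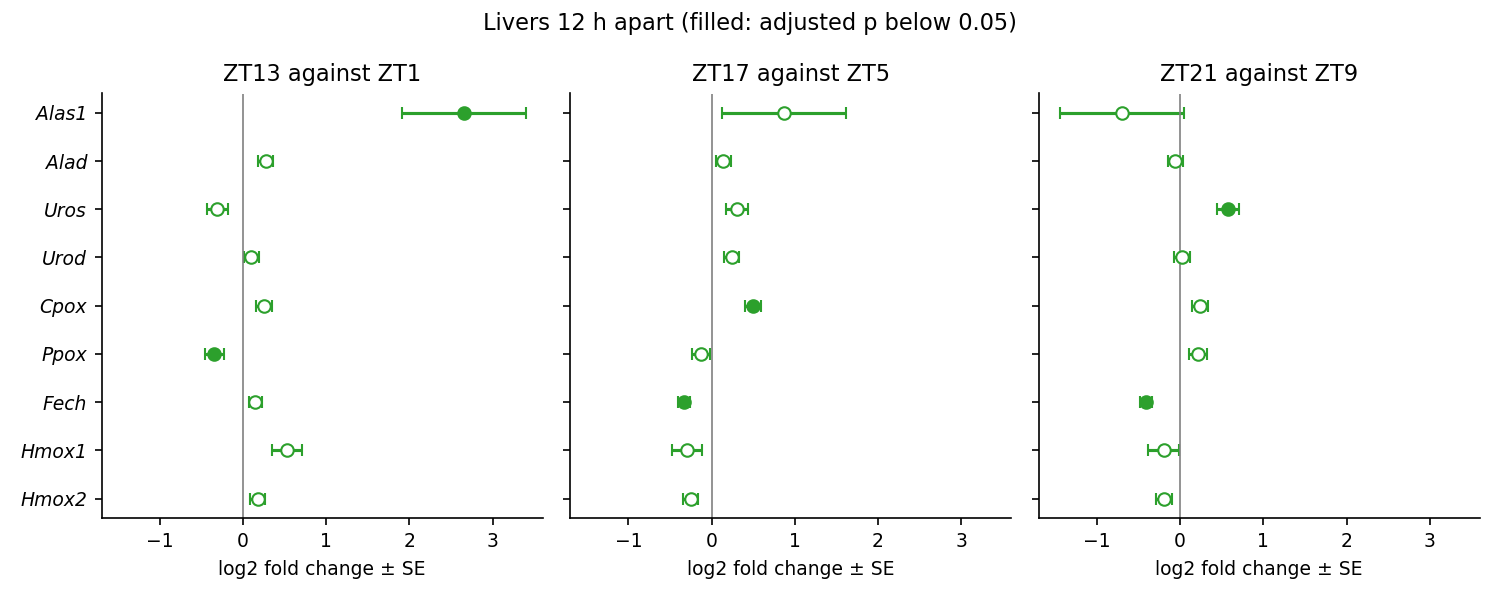
Log2 fold change with standard error (limma, 18 livers) of each member between times 12 h apart, 1 panel per comparison, filled where the adjusted p was below 0.05. Alas1 reaches 2.65 at ZT13 against ZT1 with the widest error bars of the members, and Uros, at 0.57 for ZT21 against ZT9, is the highest filled value of the others.

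The members were not alike over the livers. Among the 36 pairs, Pearson's r of log2 values over the 18 livers, which share libraries and depth, ran from -0.72 (Uros with Fech) to 0.67 (Fech with Hmox2), with a median of -0.01, and 17 pairs were above 0. Without ZT5 replicate 3 the range was -0.73 to 0.67 and the median -0.03. For the deviations of each liver from the mean of its time, r of Alas1 with the other 8 members ran from -0.53 (Hmox1) to 0.63 (Alad), and was 0.59 with Urod. Without ZT5 replicate 3 these were -0.50, 0.50 and 0.63.

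For the members that MC or the curve fit called, the most alike genes over the 18 livers among 12480 were Hsph1 (r = 0.95), Gsta3 (0.93) and Edem1 (0.93) for Cpox. For Fech they were Actn1 (0.93), Abcg5 (0.92) and Nr1d2 (0.92), and for Uros Il11ra1, Pde9a (both 0.89) and 1700113A16Rik (0.89). Chosen after the values were seen, those of Alad were Dnajb1 (0.89), Bag3 (0.88) and Dnajb4 (0.87), which encode co-chaperones of HSP70, as Hsph1 does.

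Of the other enzymes of the pathway described here (Alas2, Blvra and Blvrb), Blvrb was called by each of the 5 rules, and Alas2 and Blvra by none. Blvrb, a biliverdin reductase, had values of 38.6, 59.98 and 57.3 at ZT5 and 81.6, 75.3 and 80.4 at ZT17, with no overlap (share of all genes not computed). Its peak at ZT 16.99 h was next to that of Cpox, with an amplitude of 0.27 ± 0.0579 (adjusted p = 0.00447, limma). The ZT17 to ZT5 log2 fold change was 0.62 (adjusted p = 0.00469), and 0.70 without ZT5 replicate 3. Blvra, the other biliverdin reductase, stayed between 6.36 and 10.9 (adjusted p = 0.806 for the 24 h term).

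Alas2, the ALAS of red cell precursors, lay between 88.9 and 122.9 in every liver (adjusted p = 0.303). The 4 hemoglobin genes listed in the table summed to anything from 19.4 to 566.5, and the red cell markers Slc4a1, Epb42 and Ahsp were not analysed here. Alas2 shared 311 exon bases (12.9%) with Apex2, whose mean was 8.02.

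Among 13 regulators of Alas1 and Hmox1, 10 carried a 24 h term and 10 differed between times in limma, and JTK, MC and the curve fit called 5, 6 and 4. Of all genes, these rules called 35.3%, 26.3%, 14.1%, 18.3% and 12.1% in the same order. Without ZT5 replicate 3 the counts were 9, 9, 4, 5 and 3, with 32.6%, 23.3%, 11.6%, 15.7% and 12.5% of all genes called. Nr1d1, 1 of the 13, is a clock gene that also served to check the times. The list was chosen with earlier results of these data known, so its counts are a description and not a test. Clpx, which encodes part of the protease that degrades ALAS1 when heme is ample, went from 56.8 ± 5.41 at ZT9 to 358 ± 13.97 at ZT1 (SD, n = 3, amplitude 1.36, peak ZT 21.89 h, adjusted p = 2.4e-09, limma). At ZT13, where Alas1 was highest, Clpx was 95.4 ± 8.45. Nr1i3 (CAR), an activator of Alas1, was 116 ± 4.93 at ZT1 and 266 ± 51.2 at ZT9, with a peak at ZT 13.31 h (adjusted p = 0.0045).

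Ppargc1a peaked at ZT 6.78 h, with 11.2 ± 0.783 at ZT5 and 5.82 ± 0.598 at ZT1 (adjusted p = 0.0317, and 0.0636 without ZT5 replicate 3), and Nr1d1 (REV-ERBα), a repressor, at ZT 6.20 h with 117 ± 25 at ZT5. Bach1, a heme-sensing repressor of Hmox1, was 66.7 ± 14.3 at ZT9 and 28.2 ± 5.44 at ZT17 (peak ZT 6.42 h, adjusted p = 0.00349), and its partner Mafk peaked at ZT 5.18 h (adjusted p = 0.00935). Nfe2l2 (NRF2), the activator at the same sites, Nrf1 and Lonp1 passed no rule (adjusted p of the 24 h term 0.602, 0.462 and 0.899).

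For heme, porphyrin and iron transport, 21 of 23 listed genes were found (Flvcr1 and Flvcr2 were not), and 11 carried a 24 h term in limma (35.3% of all genes did). Without ZT5 replicate 3 it was 12 of them, and 32.6% of all genes. With all 18 livers, 7 passed the test over times (26.3% of all genes). JTK called 6 (14.1%), MC 8 (18.3%) and the curve fit 6 (12.1%). Tmem14c, a carrier of protoporphyrinogen into mitochondria and so the neighbour of Cpox and Ppox in the pathway, was 121.9 ± 7.84 at ZT17 and 82.3 ± 3.99 at ZT9 (peak ZT 18 h, adjusted p = 0.00215). Slc25a39 (peak ZT 14.8 h) and Slc25a38 (15.2 h), mitochondrial carriers, passed as well (adjusted p = 0.00519 and 0.0102), as did Slc48a1, an endosomal heme exporter, with a peak at 7.93 h (0.00258). The plasma protein genes Hpx and Hp missed the threshold (0.367 and 0.0617).

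All 4 genes of bilirubin handling carried a 24 h term in limma, as 35.3% of all genes did. The test over times passed 2 of them (26.3% of all genes). JTK called 3 (14.1%), MC 3 (18.3%) and the curve fit 2 (12.1%). Cyp2a5, a P450 that oxidizes bilirubin, was 133 ± 9.62 at ZT1 and 1010 ± 345 at ZT13, with a peak at ZT 13.04 h (amplitude 1.29 ± 0.138, adjusted p = 8.3e-06), next to the peak estimate of Alas1. Ugt1a1, which conjugates bilirubin, peaked at ZT 13.6 h (adjusted p = 0.00497), and Abcc2, which exports the conjugate into bile, at ZT 6.96 h (adjusted p = 0.000553). Of 13 heme-containing proteins of the liver, 11 carried a 24 h term (35.3% of all genes did), among them Cyp7a1 (peak ZT 15.3 h, amplitude 0.91 ± 0.178), Cyp2e1 (11.8 h, 0.39 ± 0.0718) and catalase (Cat, 0.204 h, 0.16 ± 0.0374). Of these 13, 6 passed the test over times (26.3% of all genes). MC called 6 (18.3%), JTK 2 (14.1%) and the curve fit 0 (12.1%), and none of these 3 rules called Cyp7a1.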

How the data were processed

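Per the study's methods, the authors demultiplexed reads with CASAVA 1.8.2, trimmed adapters with cutadapt, quantified them with RSEM 1.2.20 on the GRCm38 transcriptome (Ensembl gene build 84) and normalized the estimated counts with limma. The deposited values are a linear signal per gene and liver: an estimated count plus an offset of 0.5 reads, divided by an effective library size. From 39.1% to 47.9% of values were whole reads (within 0.0005 reads), so no count test was run. The offset gives depths of 10268168 to 23242842 estimated reads, which set the precision of low genes. The 2 genes at the floor in every liver were dropped, leaving 14449.

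JTK (18 cosine orders of 20, 24 and 28 h, exact Jonckheere null, Bonferroni over orders), MC (Fisher combination with the Lomb-Scargle test) and a CircaN-type least squares fit were written anew from the study's description. Only the cosine and triangular curves were fitted, with no random effect, since the constants of the other curves are not given in the text used here. limma 3.58.1 (R 4.3.3) was run on log2(value + 1) with a 24 h cosine and with 1 mean per time, which gave the F test and the contrasts 12 h apart. Its prior pulls each gene's spread toward that of all genes. Python 3.11.15, numpy 2.4.6, scipy 1.17.1 and pandas 2.3.3 did the rest. P-values were adjusted over all 14449 genes by Benjamini-Hochberg (threshold 0.05), and each procedure was tested on simulated data. All 9 members are named, and the 3 most alike genes (mean at least 1) for those called by MC or the curve fit. Exons came from the GENCODE M21 annotation of GRCm38. The members and lists were chosen with earlier results of these data known. Other scalings, filters, pseudocounts, thresholds and left-out livers were tried as alternatives.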

Additional observations from a re-analysis of the deposited data

How the results depend on the processing

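Leaving out each liver in turn gave 2 to 3 members called by JTK, 2 to 4 by MC, 2 to 3 by the curve fit, 5 to 6 with a 24 h term, and 4 to 5 that differed between times. It gave 0 to 2 between ZT13 and ZT1, 2 to 3 between ZT17 and ZT5, and 2 between ZT21 and ZT9. At a threshold of 0.01 JTK called 1 member, 3 carried a 24 h term and 0 differed between ZT13 and ZT1 (limma, where Alas1, Ppox, Alad and Hmox1 had unadjusted p of 0.00274, 0.00639, 0.00854 and 0.0111). An intensity trend of the prior variance gave 4 members between ZT17 and ZT5, and 6 that differed between times, Alas1 and Hmox1 added. Scaling each liver to the same sum also gave 6 that differed between times, but with Ppox and Hmox2 added (adjusted p = 0.0323 and 0.0365, limma). MC then called Ppox too (q = 0.0388), JTK called Uros (q = 0.0425), and the curve fit no longer called Uros. The correlations without ZT5 replicate 3 were added after seeing the data. The cause of these moves was not tested, beyond the fewer livers or the stricter threshold themselves. The difference of Alas1 between ZT21 and ZT9, not called, ran from -1.39 to 0.36 (log2) over the left-out livers and was above 0 only without ZT21 replicate 2. The Urod log2 fold change, ZT21 against ZT9, also not called, ran from -0.0254 to 0.0555 and was -0.0262 when each liver was scaled to the same sum. This scaling moved the median ZT17 to ZT5 difference of all genes by -0.12 (log2), and Cpox was then 0.37 and Fech -0.46, both still called. Among the single values of the members, 1251 of those with a liver left out kept direction and side of the threshold, 27 fell below it, 15 passed it and 3 reversed, and under the other settings 453, 10, 13 and 1 did. No paired analysis was possible because each liver was from another mouse and replicate numbers only name the livers. With 3 livers per time and 1 day of sampling, small differences of Urod and Hmox1 and the length of any period were beyond what these data fix.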
